A study of Mus musculus with 12 samples.

Results

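The results concern 9 mouse genes of the interferon response and RNA sensing, chosen by name, out of the 54735 gene symbols listed in each library. They are Ddx58 and Ifih1, which encode the cytoplasmic RNA sensors RIG-I and MDA5, the transcription factor gene Irf7, the negative regulator gene Usp18, and the interferon-stimulated genes Isg15, Ifit1, Ifit3, Oasl2 and Bst2. All 9 were found under these symbols in all 12 libraries. In GRCm38 with GENCODE M21 they are protein-coding genes at chr4:40203773-40239828 (Ddx58), chr2:62595798-62646255 (Ifih1), chr7:141262706-141266481 (Irf7), chr6:121245906-121270917 (Usp18), chr4:156199424-156200818 (Isg15), chr19:34640871-34650009 (Ifit1), chr19:34583531-34588731 (Ifit3), chr5:114896936-114912234 (Oasl2) and chr8:71534255-71537456 (Bst2). RNA was sequenced from the dissected pallium, the dorsal telencephalon that gives rise to the cortex, of C57/Bl6 embryos at E13.5, with 4 embryos in each of 3 groups. Control embryos were Rnu11 wt/flx, Trp53 wt/wt and Emx1-Cre+. Embryos called cKO were Rnu11 flx/flx, Trp53 wt/wt and Emx1-Cre+, and those called dKO were Rnu11 flx/flx, Trp53 flx/flx and Emx1-Cre+. U11, the RNA made from Rnu11, belongs to the minor spliceosome, and Trp53 encodes p53. Every embryo, controls included, carried Cre and at least 1 floxed Rnu11 allele. Emx1-Cre acts in the pallial progenitor lineage, so microglia, vessel cells and meningeal cells in the dissected tissue keep the floxed alleles intact.

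Cells detect viral or misplaced RNA with a small set of sensors. RIG-I and MDA5 bind double-stranded RNA in the cytoplasm and signal through MAVS to the kinases TBK1 and IKK-epsilon and the transcription factors IRF3 and IRF7, which switch on interferon genes. Secreted interferon then acts through its receptor, the kinases JAK1 and TYK2 and transcription factors on the interferon-stimulated genes, many of which carry an interferon-stimulated response element in the promoter. In the brain, microglia have high basal levels of many of these genes.

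The promoter sequences of the members show which of them have an exact match to the core of that element close to the start. RefSeq promoter windows (build GRCm38.p6) were found for 8 of the 9 genes, all but Usp18, and the 250 bases before the start were searched on both strands for GAAA, any 2 bases and GAAA again, the core of the element. A match on the opposite strand reads TTTC, any 2 bases and TTTC. Isg15 held 3 overlapping matches, Bst2 held 2 overlapping matches, and Ifit1 and Ifit3 held 2 separate matches each. Irf7, Oasl2, Ifih1 and Ddx58 had none in this window. Variant forms of the element and sequence outside the window were not searched. A match occurred in the window of 3.46% of all 27025 RefSeq genes with one. It occurred in 22 of the 67 genes with a window (32.8%) on a wider list of interferon-stimulated genes that includes the members. The stretches are shown because elements of this kind are how interferon is known to reach its target genes. They run 5′ to 3′ on the strand of the gene, with the matched bases in capitals.
Isg15, chr4:156200863-156200908, minus strand: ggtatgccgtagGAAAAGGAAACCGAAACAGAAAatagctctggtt
Bst2, chr8:71537575-71537614, minus strand: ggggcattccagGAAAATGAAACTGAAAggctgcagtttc
Ifit1, chr19:34640773-34640825, plus strand: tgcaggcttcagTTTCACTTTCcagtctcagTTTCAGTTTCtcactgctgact
Ifit3, first match, chr19:34583361-34583394, plus strand: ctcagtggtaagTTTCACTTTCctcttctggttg
Ifit3, second match, chr19:34583395-34583428, plus strand: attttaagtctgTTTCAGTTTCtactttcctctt
A match in sequence is a description of these letters and does not show that a factor was bound.

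**Figure D1:**
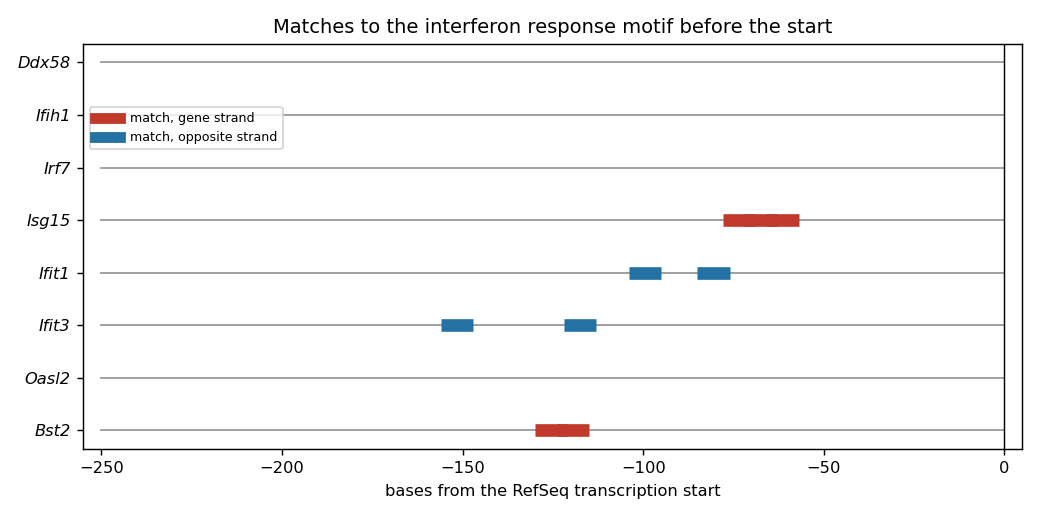
Position of each match to the interferon response motif, in bases before the RefSeq transcription start (x axis), for the 8 members with a promoter window (rows); red bars are matches on the strand of the gene and blue bars on the opposite strand. The matches of Isg15, Ifit1, Ifit3 and Bst2 lie between 57 and 156 bases before the start.

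Values are TPM, a length-corrected abundance that adds up to 1000000 in each library. Nuclear protein-coding genes held only 14.6% to 16.3% of that sum in the controls, 16.1% to 19.99% in the cKO embryos and 14.4% to 15.5% in the dKO embryos. A TPM of 1 therefore marks a better expressed gene here than in libraries made of messenger RNA. TPM does not keep the number of reads, so no counting interval can be given. Rnu11 ran from 521.2 to 724.5 TPM over the controls, 115 to 159 over the cKO embryos and 142 to 199 over the dKO embryos, and Trp53 from 2.63 to 6.37, 3.92 to 4.83 and 0.92 to 1.49 TPM. Rnu11 was lower in both mutants than in control, and Trp53 lower in dKO than in both other groups, as labelled (exact two-sided permutation test of 4 against 4, p = 0.0286 each, the smallest that 70 assignments allow).

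The members were tested with limma on log2(TPM + 0.1) over 20128 genes whose mean reached 0.1 TPM, and a gene was called where its adjusted p was under 0.05. As deposited, cKO had 5392 genes above control and 142 below it by this rule. In this fit the median gene stood 0.33 higher on the log2 scale in cKO than in control and 0.35 lower in dKO than in cKO. Member calls and list counts are therefore also given after protein-coding rescaling, which brings each library to an equal sum of nuclear protein-coding genes and leaves medians of 0.19 and -0.14, and after median-shift centring, which leaves -0.01 and 0.02. The calls in cKO against control then split into 2014 higher and 209 lower after rescaling and 645 higher and 438 lower after centring. Nothing states that embryos of a group came from separate litters, so the p-values measure only the spread between these samples. In tissue RNA, fewer cells of a type and less RNA per cell cannot be told apart.

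In control pallium Bst2 and Ddx58 lay above the median nuclear protein-coding gene and the other 7 members below it, and Bst2 and Ddx58 were the only members with a mean of at least 1 TPM over the 12 libraries. The control means ran from 1.47 ± 0.385 TPM for Bst2 (SD, n = 4), higher than 59.9% of nuclear protein-coding genes, through 0.812 ± 0.124 for Ddx58 (53.6%) and 0.331 ± 0.0822 for Irf7. Below these lay Ifih1 at 0.263 ± 0.0961 TPM, Isg15 at 0.192 ± 0.197, Usp18 at 0.142 ± 0.104, Ifit3 at 0.0607 ± 0.0535 and Oasl2 at 0.0456 ± 0.0198 TPM (SD, n = 4 each). The lowest was Ifit1 at 0.022 ± 0.0154 TPM, higher than 29.4% of nuclear protein-coding genes. From Irf7 down to Usp18 each mean lay within 1 SD of the next, so their order is not fixed by these embryos.

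The comparison of cKO with control asks whether loss of U11 came with a change in these genes. Bst2, Isg15, Oasl2, Ifit3, Ifih1 and Ddx58 rose in cKO, with fold differences of the mean TPM from 1.74 for Ddx58 to 4.71 for Oasl2. Irf7 and Usp18 were not called, and Ifit1 did not reach the level needed for testing. As deposited, 6 of the 8 members tested were called higher and 0 lower, where 26.8% of all tested genes were called higher and 0.705% lower. Ifit3 and Oasl2 had control means under 0.1 TPM and entered the test through their cKO values, so the count over tested members is no support in itself. After protein-coding rescaling 3 were called higher (Bst2, Ddx58 and Oasl2; 10.0% of all tested genes), and after centring Bst2 was (3.20% of all tested genes).

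**Figure D2:**
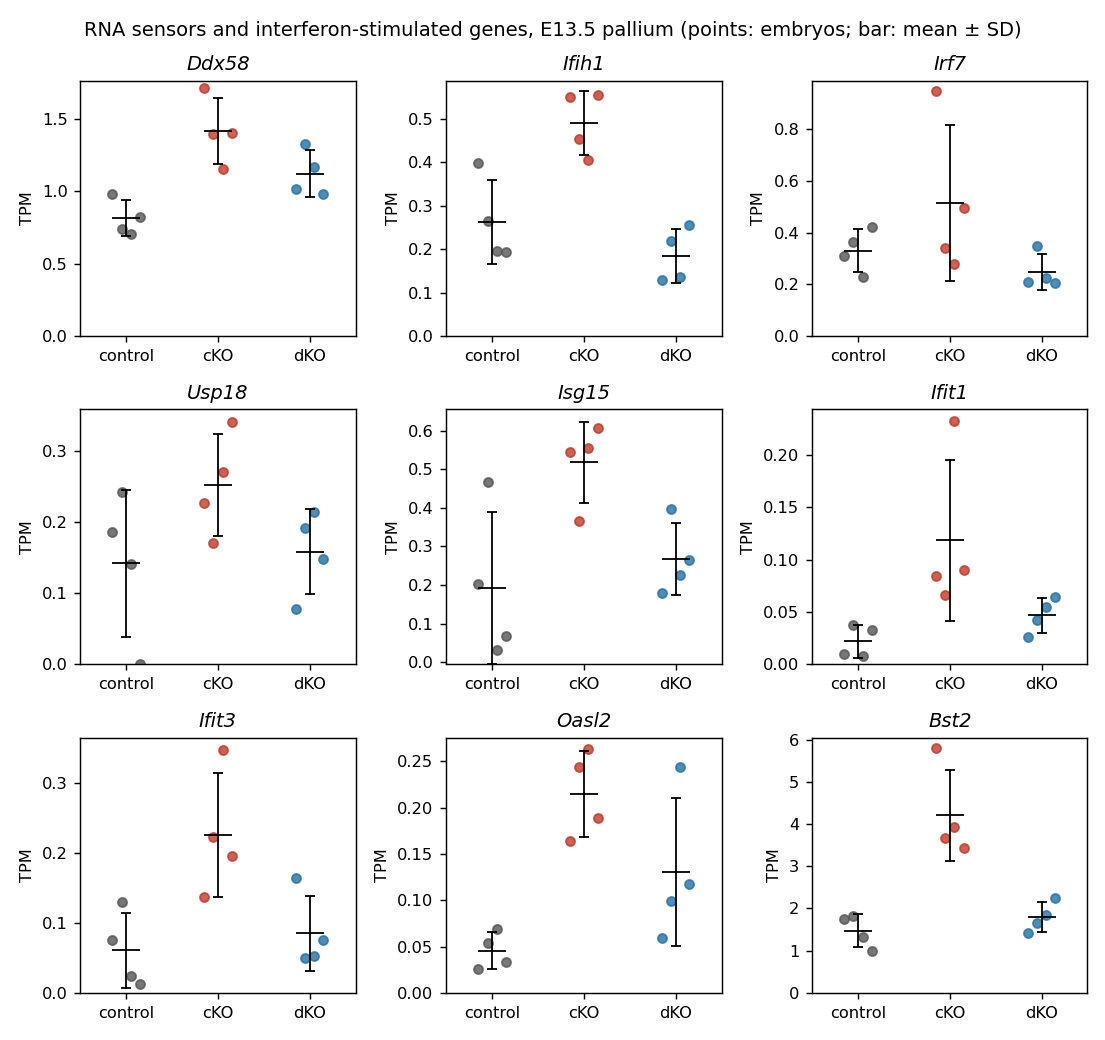
TPM of each member (y axes, linear) in the 4 embryos of each genotype (x axes); points are embryos, and black bars show the mean ± SD. In 6 panels, those of Ddx58, Ifih1, Ifit1, Ifit3, Oasl2 and Bst2, the 4 cKO embryos lie above the 4 controls.

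Among the sensors, Ddx58 stood at 0.981, 0.737, 0.704 and 0.824 TPM in controls 1 to 4, and at 1.71, 1.39, 1.15 and 1.40 in cKO 1 to 4. All 4 cKO embryos lay above all 4 controls. Its log2 change was 0.73 (95% interval 0.40 to 1.06; limma adjusted p = 0.00588), with an adjusted p of 0.0334 after rescaling and 0.14 after centring. Ifih1, whose product MDA5 binds long double-stranded RNA, stood at 0.398, 0.265, 0.196 and 0.192 TPM in control and at 0.549, 0.453, 0.405 and 0.556 in cKO. The groups did not overlap, but control 1 at 0.398 TPM came close to cKO 3 at 0.405. The log2 change of Ifih1 was 0.73 (95% interval 0.25 to 1.21; limma adjusted p = 0.031, and 0.10 after rescaling and 0.336 after centring). The call on Ifih1 was lost when any of control 2, 3 or 4 or cKO 1, 2 or 4 was left out, with limma adjusted p-values up to 0.0802.

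Of the regulators, Irf7, the factor that amplifies interferon production, stood at 0.311, 0.363, 0.228 and 0.421 TPM in control and at 0.948, 0.342, 0.279 and 0.494 in cKO. The higher cKO mean came mainly from cKO 1, and the groups overlapped. Its log2 difference was 0.42 (95% interval -0.22 to 1.06; limma adjusted p = 0.285), and leaving out embryos in turn gave no call. Usp18, which removes ISG15 from proteins and dampens interferon receptor signalling, stood at 0.186, 0.242, 0.141 and 0 TPM in control and at 0.228, 0.171, 0.271 and 0.342 in cKO. The groups overlapped, and the difference of 0.66 on the log2 scale had a 95% interval from -0.11 to 1.43 (limma adjusted p = 0.175). Both intervals include a doubling, so these embryos do not show that Irf7 and Usp18 stayed level.

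Among the effectors, Bst2, which encodes tetherin, a membrane protein that holds budding virus particles at the cell surface, changed most by the limma log2 value. It stood at 1.75, 1.82, 1.33 and 0.997 TPM in control and at 5.80, 3.67, 3.92 and 3.44 in cKO. All cKO embryos lay well above all controls, with cKO 1 the highest. Its log2 change was 1.46 (95% interval 1.00 to 1.92; limma adjusted p = 0.001), and the adjusted p was 0.00628 after rescaling and 0.0162 after centring. Bst2 was called higher in cKO under all 23 alternatives run, with log2 changes from 1.07 to 1.57.

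Isg15, which encodes a ubiquitin-like modifier, stood at 0.202, 0.466, 0.032 and 0.0681 TPM in control and at 0.544, 0.366, 0.554 and 0.608 in cKO. Control 2 lay above cKO 2, so the groups overlapped, with a wide spread among the controls. Its log2 change was 1.30 (95% interval 0.46 to 2.14; limma adjusted p = 0.0278, 0.0815 after rescaling and 0.186 after centring), and the call was lost without control 3, control 4, cKO 1, cKO 3 or cKO 4 (adjusted p up to 0.0766). Oasl2, of the oligoadenylate synthetase family, which binds double-stranded RNA, stood at 0.0259, 0.0538, 0.0694 and 0.0332 TPM in control and at 0.164, 0.244, 0.263 and 0.189 in cKO. The lowest cKO embryo was well above the highest control. Its log2 change was 1.11 (95% interval 0.55 to 1.67; limma adjusted p = 0.00974, 0.0308 after rescaling and 0.107 after centring).

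The Ifit genes encode proteins that bind foreign RNA at its 5′ end or block its translation, and Ifit1 and Ifit3 lie in one cluster on chromosome 19. Ifit3 stood at 0.0759, 0.13, 0.0244 and 0.013 TPM in control and at 0.137, 0.223, 0.348 and 0.195 in cKO. The groups did not overlap, although control 2 came within 0.01 TPM of cKO 1. The log2 change of Ifit3 was 1.04 (95% interval 0.38 to 1.70; limma adjusted p = 0.026, 0.0713 after rescaling and 0.238 after centring), and it was not called without control 3, control 4, cKO 2 or cKO 3 (adjusted p up to 0.0674). Ifit1 stood at 0.00965, 0.0375, 0.00776 and 0.033 TPM in control and at 0.0845, 0.066, 0.232 and 0.0904 in cKO. Every cKO embryo was above every control, giving a log2(TPM + 0.1) difference of 0.79 (exact two-sided permutation test, p = 0.0286). Without the filter on low values, limma called Ifit1 higher in cKO (adjusted p = 0.0325; 10.5% of the 39624 genes in that fit were called higher). In the same fit Isg15 and Ifih1 lost their calls (limma adjusted p = 0.0573 and 0.0688), which left 5 of 9 members called. In all, 6 of the 9 members had every cKO embryo above every control, as had 29.4% of all tested genes.

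Reads from near-identical family members can be split or shared, and how the authors assigned them, or whether counting used the strand, is not stated in the labels. The partners of Ifit3 and Ifit1, Ifit3b and Ifit1bl1, and Oasl1, the partner of Oasl2, had means under 0.1 TPM over the 12 libraries. Ifit1bl1 stood at 0.0295 to 0.0657 TPM in control and 0.108 to 0.148 in cKO, with no overlap. Ifit3b (0 to 0.0335 and 0.0299 to 0.153 TPM) and Oasl1 (0 to 0.0591 and 0.028 to 0.0791 TPM) overlapped.

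**Figure D3:**
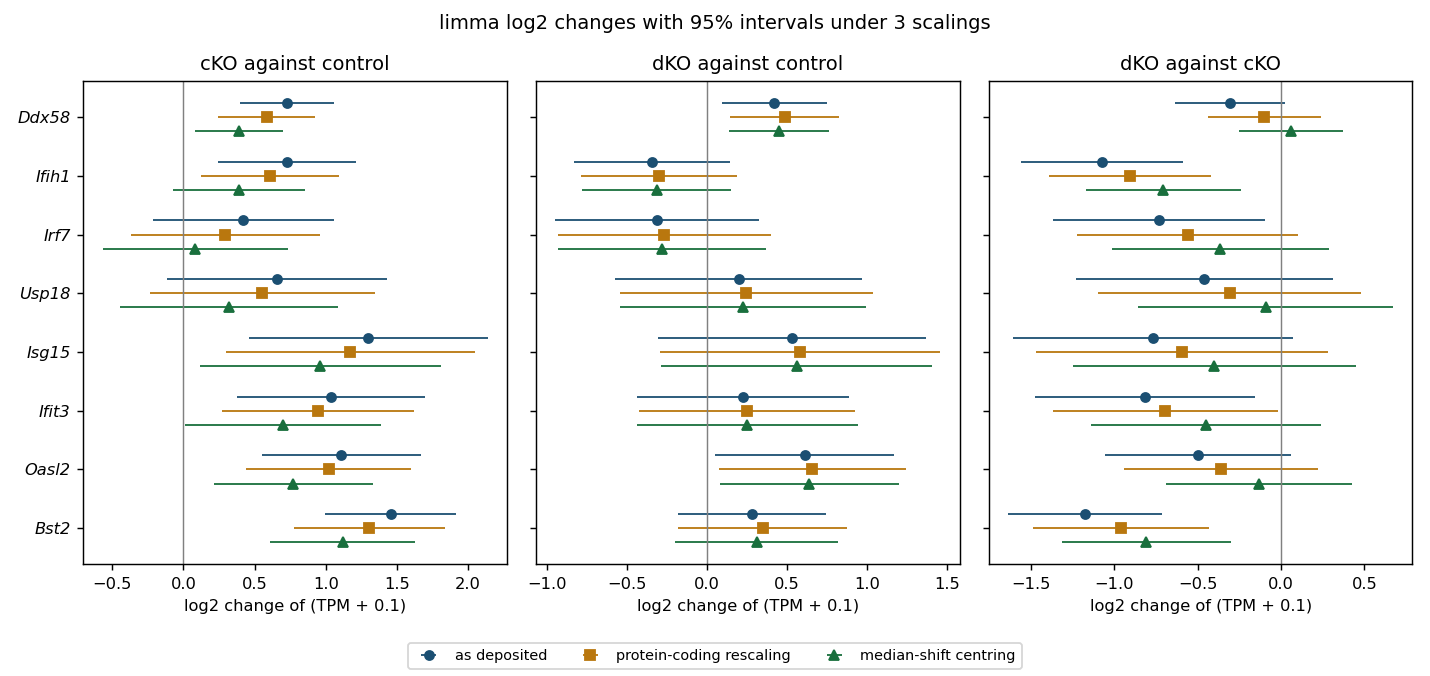
limma log2 changes of (TPM + 0.1) with 95% intervals (x axes) for the 8 tested members (rows) in the 3 comparisons (panels), as deposited (circles), after protein-coding rescaling (squares) and after median-shift centring (triangles). In cKO against control the centred intervals of Ifih1, Irf7 and Usp18 include 0; in dKO against control the intervals of Ddx58 and Oasl2 exclude 0, but neither gene passed after adjustment over all genes.

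The dKO pallia, with Rnu11 and Trp53 both floxed on the 2 alleles, were next set against control. No member was called in either direction by limma, where 2.61% of all tested genes were called higher and 3.51% lower. At an unadjusted p under 0.05, 2 members were higher (Ddx58 and Oasl2) and 0 were lower. The share of all tested genes at that threshold is not given, so this count is a description only. Oasl2 had a control mean of 0.0456 TPM and entered the test through the mutants. No member had separate groups; every dKO embryo was above every control for 5.63% of tested genes, and below for 8.47%. Ddx58 came closest to a call: it stood at 1.01, 1.33, 1.17 and 0.977 TPM in dKO 1 to 4, and dKO 4 was just below control 1. The log2 difference of Ddx58 from control was 0.42 (95% interval 0.09 to 0.75; limma adjusted p = 0.125, 0.0783 after rescaling and 0.0754 after centring).

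Oasl2 stood at 0.0594, 0.099, 0.244 and 0.118 TPM in dKO, so dKO 3 reached the cKO range while dKO 1 stayed within the control range. Its log2 difference from control was 0.61 (95% interval 0.05 to 1.17; limma adjusted p = 0.188). Bst2 stood at 1.42, 1.66, 1.83 and 2.25 TPM in dKO, overlapping control, with a log2 difference of 0.28 (95% interval -0.18 to 0.74; limma adjusted p = 0.481). Ifih1 had a lower mean in dKO than in control, at 0.129, 0.218, 0.136 and 0.255 TPM, with a log2 difference of -0.34 (95% interval -0.83 to 0.14; limma adjusted p = 0.415). The remaining tested members had log2 differences from -0.31 for Irf7 to 0.53 for Isg15, with limma adjusted p-values from 0.466 to 0.797. Ifit1 stood at 0.0261, 0.0421, 0.0546 and 0.064 TPM in dKO and overlapped control (exact two-sided permutation test, p = 0.114).

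Setting dKO against cKO shows what differed with Trp53 with Rnu11 flx/flx in both. This comparison shares the cKO embryos with cKO against control, so a high cKO value enters both. Bst2 and Ifih1 fell, and no member was called higher, where 32.8% of all tested genes were called lower and 0.551% higher. The 2 called of 8 tested are thus no larger a share than that of all genes. Bst2 fell by 1.17 on the log2 scale (95% interval -1.64 to -0.71; limma adjusted p = 0.00247), and Ifih1 fell by 1.07 (95% interval -1.56 to -0.59; limma adjusted p = 0.00474). Both were also called lower after rescaling (adjusted p = 0.0287 and 0.0258; 9.40% of all tested genes were lower) and neither after centring (0.0605 and 0.0705; 3.65% lower). For Ifih1, Bst2 and Ifit1 every dKO embryo was below every cKO embryo, as for 30.0% of tested genes.

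The sensors differed in value in this comparison. Ddx58 had a log2 difference of -0.31 as deposited (95% interval -0.64 to 0.02; limma adjusted p = 0.132) and 0.06 after centring, so its direction was not fixed, whereas Ifih1 stayed negative under the 3 scalings. The difference between these genes was not tested. Ifit3, Irf7, Isg15, Oasl2 and Usp18 had log2 differences of -0.81, -0.73, -0.77, -0.50 and -0.46, and none passed (limma adjusted p = 0.0561, 0.0721, 0.139, 0.147 and 0.326). For Irf7 the dKO embryos stood at 0.21, 0.35, 0.225 and 0.205 TPM, 3 of them below every control and every cKO embryo. Isg15 stood at 0.179, 0.397, 0.227 and 0.265 TPM in dKO, where dKO 1 was below the control mean and the others lay between the control and cKO means. Ifit3 stood at 0.164, 0.0498, 0.0527 and 0.0755 TPM, where dKO 1 was above cKO 1, and Usp18 at 0.0785, 0.192, 0.214 and 0.149 TPM.

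Interferon transcripts were scarcely present. Of 21 interferon genes, 11 were listed at 0 in all 12 libraries, and none had a mean of 0.1 TPM. Ifnb1, the first interferon that RNA sensing induces in most cells, was listed at 0 in 11 libraries and at 0.0335 TPM in dKO 4. The 3 highest were Ifnk, with a mean of 0.0784 TPM over the 12 libraries, Ifnz with 0.0497 and Ifna13 with 0.0444. The summed level of the 21 genes overlapped between groups, with 0.107 to 0.241 TPM in the controls, 0.139 to 0.308 in the cKO embryos and 0.111 to 0.488 in the dKO embryos.

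Of 29 sensors of RNA or DNA and their adaptors, 26 were tested. In cKO against control 10 were called higher and 0 lower (13 and 0 at an unadjusted limma p under 0.05), and the list median of 0.35 on the log2 scale was close to the 0.33 of all tested genes. After rescaling 8 were higher and 1 lower, and after centring 3 were higher and 2 lower. The higher calls are 38.5%, 30.8% and 11.5% of the list as deposited, after rescaling and after centring. Over all tested genes 26.8%, 10.0% and 3.20% were called higher. The largest rises were in Ifi204, Tlr7 and Ifi203. Tlr7, an endosomal sensor of single-stranded RNA, stood at 0.207 ± 0.113 TPM in control and 0.73 ± 0.163 in cKO (SD, n = 4 each; limma adjusted p = 0.00415, 0.0151 after rescaling and 0.0364 after centring). Ifi204, of a family of DNA sensors with close copies, rose from a mean of 0.264 ± 0.157 TPM to 1.01 ± 0.26 (SD, n = 4 each; limma adjusted p = 0.00288), and Ifi203 of the same family from 0.171 ± 0.124 to 0.55 ± 0.133 (adjusted p = 0.00706). After centring Ifi204 kept its call and Ifi203 lost it (limma adjusted p = 0.0228 and 0.0709). Each of the 3 fell again in dKO relative to cKO, by 1.38 for Tlr7, 1.40 for Ifi204 and 1.13 for Ifi203 on the log2 scale (limma adjusted p = 0.00457, 0.00581 and 0.0123). In that comparison 11 of the list were called lower and 0 higher, with a list median of -0.34 beside -0.35 over all tested genes. After rescaling 5 of the list were called lower, and after centring 0, Tlr7 included (adjusted p = 0.0533). These are 42.3%, 19.2% and 0% of the list, beside 32.8%, 9.40% and 3.65% of all tested genes.

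Rnaseh2a, Prkra and Rnaseh2c had the highest means of that list over the 12 libraries, and stood at 25.5 ± 2.92, 16.97 ± 1.37 and 15.3 ± 0.252 TPM in control (SD, n = 4 each). None of them was called in any comparison as deposited, although Rnaseh2a was lower in cKO than in control after rescaling and after centring (limma adjusted p = 0.0362 and 0.02). In dKO against control the nuclease genes Trex1 and Rnaseh2b fell, and 0 of the list rose. They are 7.69% of the tested list, beside 3.51% of all tested genes called lower as deposited. Trex1 encodes a DNA exonuclease and Rnaseh2b a subunit of RNase H2, which both remove nucleic acids that would otherwise be sensed. Trex1 stood at 1.44, 1.25, 1.32 and 1.69 TPM in the controls, at 1.14, 1.73, 1.78 and 1.78 in the cKO embryos and at 0.746, 0.794, 1.02 and 0.404 in the dKO embryos. Every dKO embryo was below every embryo of the other groups, and Trex1 fell by 0.91 on the log2 scale against control (limma adjusted p = 0.0362, 0.0377 after rescaling and 0.0252 after centring; 3.27% and 3.89% of tested genes were called lower under those scalings). The mean of Rnaseh2b fell from 7.71 ± 0.772 TPM in control to 5.61 ± 0.606 in dKO (SD, n = 4 each; adjusted p = 0.0474 by limma, 0.0415 after rescaling and 0.0352 after centring). Both calls are close to the threshold: each was lost with no filter on low values and when single embryos were left out, with limma adjusted p-values up to 0.106 for Trex1 and 0.123 for Rnaseh2b.

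Of 26 kinases, receptors and transcription factors of interferon signalling, all were tested. In cKO against control 11 were called higher and 0 lower, with a list median of 0.43 beside 0.33 over all tested genes. After rescaling 5 were higher and after centring 1. These are 42.3%, 19.2% and 3.85% of the list, beside 26.8%, 10.0% and 3.20% of all tested genes. In dKO against cKO 12 were called lower and 0 higher, with a median of -0.41 beside -0.35 over all tested genes. After rescaling 3 were lower and after centring 1. These are 46.2%, 11.5% and 3.85% of the list, beside 32.8%, 9.40% and 3.65% of all tested genes. The largest rises in cKO were in Ikbke, Irf5 and Irf8. Irf8, a transcription factor of the macrophage lineage, stood at 0.107, 0.131, 0.0721 and 0.129 TPM in the controls, at 0.599, 0.425, 0.457 and 0.282 in the cKO embryos and at 0.0616, 0.0778, 0.0695 and 0.136 in the dKO embryos. The cKO embryos were apart from both other groups (limma adjusted p = 0.0022 against control and 0.000953 against dKO), and both calls held after centring (0.0381 and 0.0225). Irf5 rose from 0.109 ± 0.0426 to 0.493 ± 0.302 TPM and Ikbke, the gene of IKK-epsilon, from 0.143 ± 0.11 to 0.581 ± 0.0945 (SD, n = 4 each; limma adjusted p = 0.0151 and 0.011). Both kept their calls after rescaling and lost them after centring (0.116 and 0.0664). Tbk1, Pias1 and Jak1 had the highest means of the list over the 12 libraries, and stood at 8.53 ± 0.679, 6.48 ± 0.416 and 6.07 ± 0.668 TPM in control (SD, n = 4 each). They rose by 0.39, 0.41 and 0.61 on the log2 scale in cKO (limma adjusted p = 0.0308, 0.0103 and 0.0127), where Jak1 kept its call after rescaling (0.0355) and none did after centring. Relative to cKO, Irf5, Irf8 and Ifngr2 fell most in dKO, by 1.62, 1.52 and 0.90, and of these only Irf8 was called after centring. None of the 26 was called in dKO against control by limma, with 1 higher and 0 lower at an unadjusted p under 0.05.

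The wider list of 84 interferon-stimulated genes holds the 9 members. In cKO against control 43 of the 65 tested were called higher and 0 lower, where 26.8% of all tested genes were called higher. The median log2 change of the list was 0.73. Without the members 37 of 57 were called higher, with the same median. Of the 65, 13 had a control mean under 0.1 TPM and entered the test through the mutants, and 11 of these were among the called. Over all tested genes 1216 entered in this way, of which 326 were called higher. With no filter on low values 35 of 84 were called higher, beside 10.5% of all genes in that fit. After protein-coding rescaling 20 of 65 were called higher and after centring 11, with 0 lower in both. Of all tested genes 10.0% and 3.20% were called higher under those scalings.

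Ifitm3, Oas1a and Tap1 rose most in cKO. Ifitm3, which encodes a membrane protein that blocks virus entry, stood at 2.23, 2.54, 1.06 and 1.25 TPM in control and 7.45, 4.25, 5.36 and 6.39 in cKO, with no overlap (limma log2 change 1.73, adjusted p = 0.00221). Tap1, a subunit of the peptide transporter for antigen presentation, rose from 0.0975 ± 0.0442 to 0.461 ± 0.0988 TPM and Oas1a, a double-stranded RNA sensor with close copies, from 0.082 ± 0.0606 to 0.468 ± 0.163 (SD, n = 4 each; limma adjusted p = 0.00145 and 0.00261). All 3 were also called after rescaling and after centring. Oas1a and Tap1 had control means under 0.1 TPM and entered the test through their cKO values. Their calls are thus no support in themselves for a rise of the list. Ifitm2, B2m and Psme1 had the highest means of the list over the 12 libraries, and stood at 20.7 ± 3.04, 6.99 ± 0.476 and 8.03 ± 0.881 TPM in control (SD, n = 4 each). B2m, the light chain of MHC class I, reached 13.3 ± 0.811 TPM in cKO (limma adjusted p = 0.000542), Ifitm2 reached 33.1 ± 5.15 (0.00404) and Psme1, a proteasome activator gene, 11.7 ± 1.24 (0.00864). B2m kept its call after rescaling and centring (0.00761 and 0.0187), Ifitm2 after rescaling (0.00645) but not centring (0.0697), and Psme1 after neither (0.0585 and 0.295).

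In dKO against control Samd9l and Tapbp were called higher among the 65, 0 were lower, and the list median was 0.07. That is 3.08% of the list called higher, close to the 2.61% of all tested genes. After rescaling and after centring 4.62% of the list was called higher, beside 4.73% and 3.91% of all tested genes. The count is thus no result about the list. The means of Samd9l, which encodes an antiviral protein, were 0.238 ± 0.0543, 0.558 ± 0.172 and 0.512 ± 0.148 TPM in control, cKO and dKO, and those of Tapbp, the gene of tapasin, 1.03 ± 0.343, 1.76 ± 0.255 and 1.84 ± 0.348 (SD, n = 4 each). Both were higher in each mutant than in control by limma (adjusted p = 0.0108 and 0.0199 for cKO, 0.0467 and 0.0401 for dKO), and in dKO also after rescaling and centring, where 4.73% and 3.91% of tested genes were higher. In cKO neither was called after rescaling or centring. In dKO both calls were lost with no filter on low values, where limma called 0 of the 84, and when single embryos were left out (adjusted p up to 0.119 for Samd9l and 0.109 for Tapbp). Ifitm2 stood at 25.4 to 29.8 TPM in dKO, above all controls at 16.3 to 23.1; it missed the threshold as deposited (limma adjusted p = 0.0656) and passed it after rescaling (0.00841) and centring (0.0135). In dKO against cKO 31 of the 65 were called lower and 0 higher, with a median of -0.57 (15 lower after rescaling and 4 after centring). Over all tested genes 32.8% were called lower as deposited, 9.40% after rescaling and 3.65% after centring. With no filter on low values 31 of the 84 were called lower, beside 5565 of all 39624 genes in that fit. The largest falls were in Ifi27l2a, Tap1 and Nlrc5, by 1.75, 1.50 and 1.44 on the log2 scale (limma adjusted p = 0.0142, 0.00119 and 0.0139). Tap1 and Nlrc5 had means under 0.1 TPM in control and in dKO and entered the test through their cKO values. The filter thus favoured a fall from cKO in these genes. Tap1 was also called after rescaling and centring (0.00437 and 0.0161), Nlrc5 after rescaling (0.0485) but not centring (0.128), and Ifi27l2a after neither (0.0669 and 0.102).

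**Figure D4:**
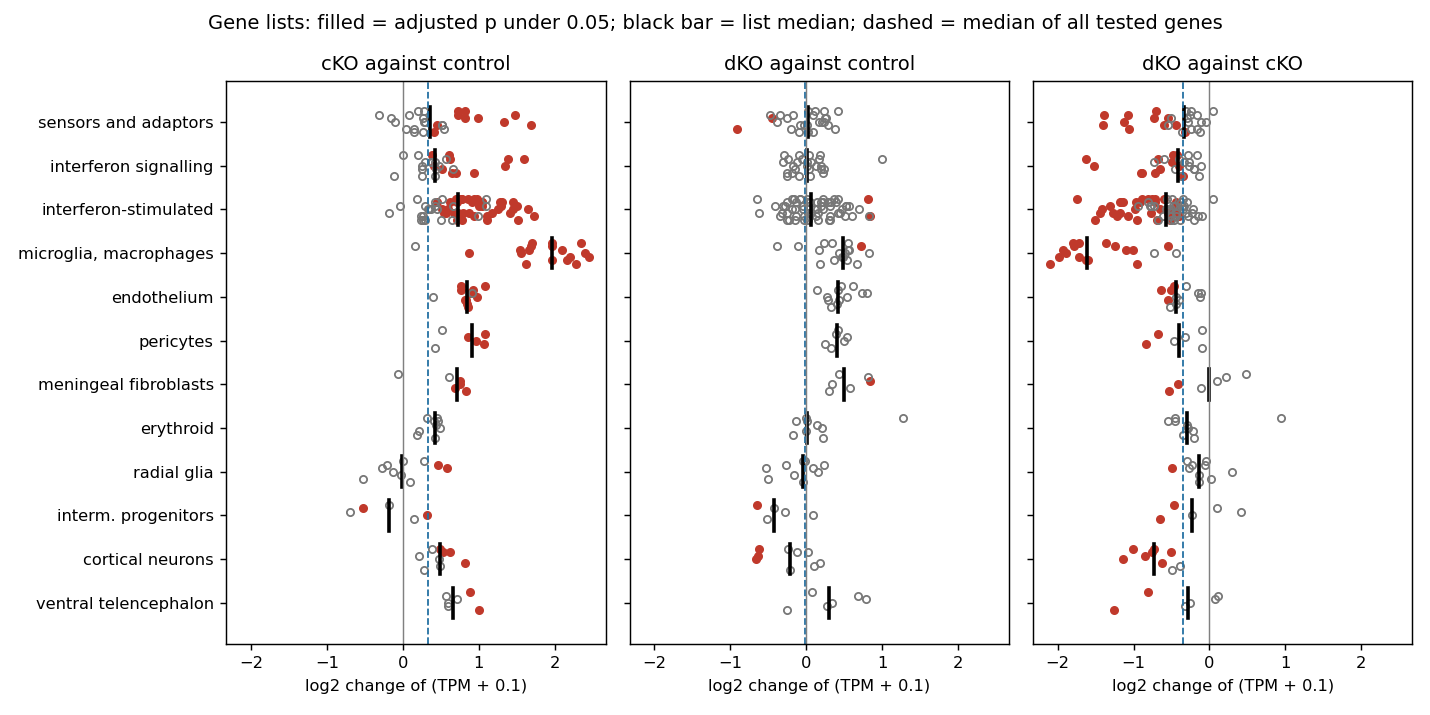
limma log2 changes of (TPM + 0.1), as deposited (x axes), of the tested genes of each pathway or marker list (rows) in the 3 comparisons (panels); filled points passed an adjusted p of 0.05, black bars are list medians, and the dashed line is the median of all tested genes. In cKO against control the microglia and macrophage list has a median of 1.96, beside 0.73 for the interferon-stimulated genes and 0.33 for all genes.

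Microglia and macrophage markers, of cells outside the Cre lineage, were higher in cKO and lower again in dKO. Of 18 markers of microglia and macrophages, none of which is on the interferon lists, 17 were called higher in cKO than in control, with a median log2 change of 1.96 (17 after rescaling and 16 after centring), and 16 were called lower in dKO than in cKO, with a median of -1.62 (13 after either scaling). Their summed level ran from 22.2 to 28.1 TPM over the controls, from 82.7 to 119 over the cKO embryos and from 27.7 to 39.98 over the dKO embryos, and no marker of the list was at 0 in any library. P2ry12 was the marker not called higher in cKO. In dKO against control the median of the 18 was 0.48 as deposited, beside -0.02 over all tested genes, with 1 marker called higher. At an unadjusted limma p under 0.05, 10 were higher and 1 lower there. The summed level of 12 endothelial markers ran from 20.2 to 25.9 TPM over the controls, 33.8 to 47.1 over the cKO embryos and 23.4 to 34.5 over the dKO embryos, with 10 called higher in cKO (7 after rescaling and 3 after centring). For 6 pericyte markers it was 3.07 to 3.80, 6.02 to 8.02 and 4.31 to 5.26 TPM, with 4 called higher in cKO (4 after rescaling and 2 after centring). For 6 meningeal fibroblast markers it was 23.03 to 39.9, 41.6 to 49.9 and 36.3 to 53.05 TPM, with 4 called higher in cKO (3 after rescaling and 0 after centring). Over all tested genes 26.8% were called higher in cKO as deposited, 10.0% after rescaling and 3.20% after centring. In dKO against cKO 4 endothelial, 2 pericyte and 2 meningeal markers were called lower as deposited. Each count is 33.3% of its list, close to the 32.8% of all tested genes called lower. After centring 0 of any of the 3 lists were called lower. The meningeal median in that comparison was -0.0042 as deposited and 0.36 after centring. In dKO against control the endothelial, pericyte and meningeal medians were 0.42, 0.41 and 0.50 as deposited, beside -0.02 over all tested genes. The lists had 0, 0 and 1 markers called higher there, and 3, 2 and 2 after rescaling. Of all tested genes 2.61% and 4.73% were called higher under those scalings. The part of these cells in the changes of the interferon genes was not tested.

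Markers of the dissected tissue were present in every library. The 10 radial glia markers summed to 264 to 301 TPM over the controls, 310 to 366 over the cKO embryos and 284 to 292 over the dKO embryos, and the 9 cortical neuron markers to 248 to 271, 329 to 398 and 167 to 256. In cKO against control 2 radial glia and 4 neuron markers were called higher, 0 of either lower, and of 5 intermediate progenitor markers Btg2 was called higher and Neurog2 lower, all as deposited. The higher calls are 20% of the radial glia list and 44.4% of the neuron list, beside 26.8% of all tested genes. The medians of these 2 lists were -0.01 and 0.49, beside 0.33 over all tested genes. The calls changed with the scaling, as did the share of all tested genes called higher, 10.0% after rescaling and 3.20% after centring. Radial glia markers had 1 higher and 2 lower after rescaling and 0 higher and 3 lower after centring. Neuron markers had 0 called after either. Intermediate progenitor markers had 0 higher and 1 lower after rescaling, and 0 higher and 3 lower after centring. In dKO against cKO 7 neuron, 1 radial glia and 2 intermediate progenitor markers were called lower as deposited, beside 32.8% of all tested genes. The neuron median was -0.73 beside -0.35 over all tested genes, with 4 neuron markers lower after rescaling and 2 after centring. Of all tested genes 9.40% and 3.65% were called lower under those scalings. In dKO against control 3 neuron markers were called lower as deposited, 1 after rescaling and 2 after centring. Of all tested genes 3.51%, 3.27% and 3.89% were called lower there. Of 9 erythroid markers 0 were called in any comparison by limma as deposited, and 1 was called higher in dKO than in control after rescaling. At an unadjusted p under 0.05, as deposited, 1 was higher in dKO than in control, and 1 was higher and 1 lower in dKO than in cKO. The 7 markers of the ventral telencephalon, outside the dissected region, summed to 1.73 to 2.43, 3.42 to 5.26 and 1.68 to 3.71 TPM. Of the 6 tested, 2 (33.3%) were called higher in cKO than in control as deposited, beside 26.8% of all tested genes. None of the 6 was called there after rescaling or centring. Their median was 0.66 as deposited, beside 0.33 over all tested genes. The reason for the higher sums in cKO was not tested.

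**Figure D5:**
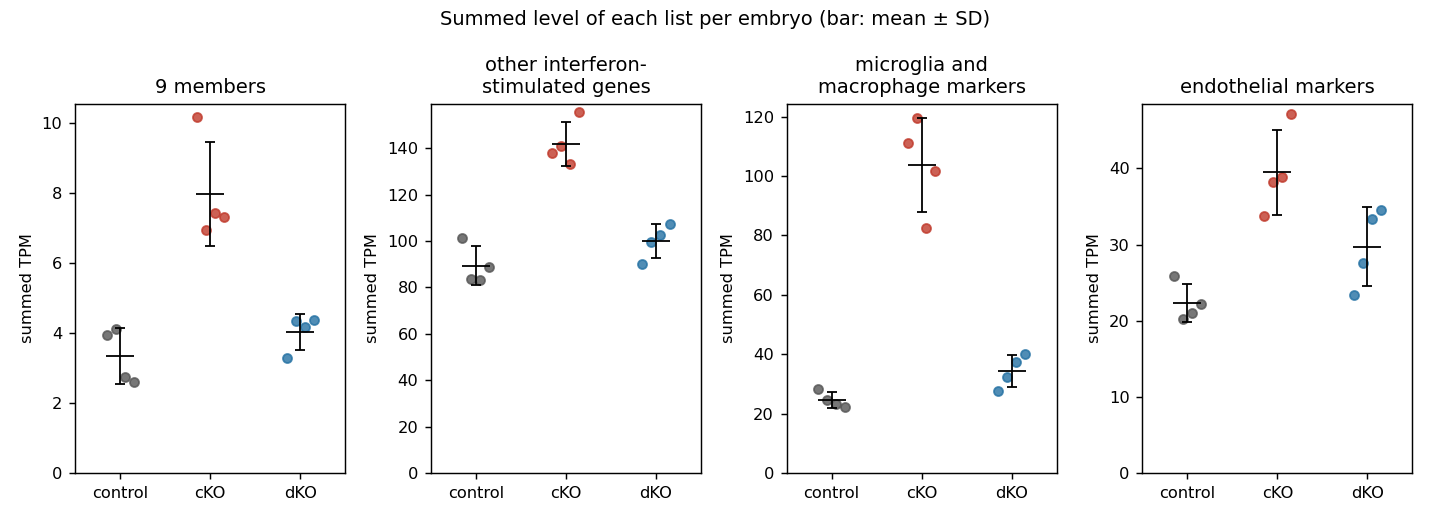
Summed TPM (y axes, linear from 0) of the 9 members, the other interferon-stimulated genes, the microglia and macrophage markers and the endothelial markers in each embryo by genotype (x axes); bars show the mean ± SD. In the first 3 panels the 4 cKO embryos lie above all embryos of the other groups; the members' sum, 2.58 to 4.11 TPM in control and 6.92 to 10.2 in cKO, has Bst2 as its largest share.

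For each called member, the tested genes whose log2 values over the 12 libraries followed it most closely by Pearson's r were also listed. These correlations carry the differences between genotypes and the library scale and are given as descriptions. Among the genes that followed Ifih1 were Fkbp2 and Tmem43 (r = 0.968 and 0.951). Bst2 was followed by Ccdc162, Kcnk6 and the interferon-stimulated gene Parp14 (0.968, 0.967 and 0.965). Ddx58 was followed by Pnmal2, Zfp963 and Slco2b1 (0.951, 0.946 and 0.946), Oasl2 by Egfr, Lrrtm3 and Map2k6 (0.96, 0.949 and 0.937), Ifit3 by Gpatch2, Taf13 and Rpl21 (0.944, 0.937 and 0.931), and Isg15 by Pacsin1, Neat1 and AL732309.1 (0.932, 0.916 and 0.914). Of the neighbours named here, Parp14 is on the interferon lists.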

How the data were processed

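Per the labels and the series design, stranded libraries of total RNA from 12 dissected pallia were sequenced on an Illumina instrument. Each deposited table lists TPM by gene symbol for 1 embryo, a unit read from the column sums of 1000000. HISAT2 and mm10 are named in the submitters' processing notes; how reads were quantified, on which annotation and with what rule for shared reads is not given in the sources used here. Depth is unknown. The members, lists and tests were chosen with earlier results of these data known.

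limma 3.58.1 (R 4.3.3) was fitted to log2(TPM + 0.1) (lmFit, eBayes with an intensity trend, 3 groups in one fit), over 20128 genes whose mean reached 0.1 TPM, with Benjamini-Hochberg adjustment over all of them. The floor was set low because protein-coding genes hold a small share of each library. Ifit1, Rnu11 and Trp53 were compared by exact permutation tests. On simulated data for cKO against control with 20128 genes, 130 of 200 genes changed by 1 on the log2 scale were recovered (65%), with 9 false calls. The deposited values gave 5534 calls in this comparison and a median log2 change of 0.33. The share of false calls among those 5534 was not tested. Gene types came from GENCODE M21 (54106 symbols matched), promoter sequences from RefSeq (GRCm38.p6). Named genes are the members, the targeted genes, family partners and, per pathway list, the 3 highest in TPM and up to 3 called genes with the largest rise or fall per comparison. Other genes named are markers that were exceptions to their list. Alternatives were other pseudocounts, filters and scalings, sample weights, fits of 2 groups, a replicate block, no trend, and leaving out each embryo. Scalings of the single-gene tests and of list counts, and the list without members, were added after the data were seen. One neighbour of Ifih1 by correlation is not reported here.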

Additional observations from a re-analysis of the deposited data

Results flagged for a closer look

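Dixon's ratio, the distance of the highest or lowest of 4 embryos from the next one as a share of the whole spread, was computed for the 9 members in each genotype. It passed the 95% critical value in 2 of 27 groups, where chance gives about 1 in 20, or 1.35. In Ifit1, cKO 3 stood at 0.232 TPM against 0.0904 for the next embryo (ratio 0.853). In Irf7, dKO 2 stood at 0.35 TPM against 0.225 (ratio 0.865).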

How the results depend on the processing

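Bst2 was called higher in cKO than in control under all 23 alternatives, and Ddx58 under 21, all but quantile normalization and median-shift centring. No member was called in dKO against control under any alternative. Members called in cKO against control numbered 6. They numbered 2 with a mean of at least 1 TPM, with either pseudocount (Bst2 and Ddx58, the only members tested), 3 after protein-coding rescaling, 1 after quantile normalization and 1 after centring. In dKO against cKO the 2 called became 1, 0 and 0 under the 1 TPM floor, quantile normalization and centring, and 4 in a fit of 2 groups. Leaving out each embryo gave 3 to 6, 0 to 0 and 2 to 3 called members in cKO against control, dKO against control and dKO against cKO, with 3 in the first without control 3 or control 4. Of all genes, 5534, 1232 and 6703 were called in these comparisons. They became 965 and 1151 in the first and last after quantile normalization, 1083 and 1200 after centring, and 2223 and 2111 after rescaling. In dKO against control they became 692 with a mean of at least 1 TPM, 610 with that and a pseudocount of 1 TPM, 730 with no filter and 2052 with array weights. Leaving out embryos gave 3346 to 5936, 703 to 1295 and 4440 to 6750. The count moved by over 1.5 times without cKO 2 or cKO 4 (3346 and 3563) in the first, without control 2, 3 or 4 or dKO 3 or 4 (746, 765, 703, 774 and 774) in the second and without cKO 2 (4440) in the last. The exact test of Ifit1 lost its call after centring in cKO against control (0.45) and, in dKO against cKO, after rescaling (-0.43) and centring (-0.16); Rnu11 gained one in dKO against cKO after centring (0.55). Apart from scaling and construction (fewer genes or embryos), the cause was not tested.

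Replicate numbers repeat across groups, but same-numbered embryos did not deviate together: over 12 pairs the correlations ran from -0.06 to 0.04, none over 0.1. With the replicate block, 821 genes were called in dKO against control, and 4 and 2 members in the comparisons of cKO with control and dKO with cKO. The unknown depth limits what can be said of Ifit1, Ifit3, Oasl2 and the interferon genes, whose values lie near 0.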
